A study of Mus musculus with 8 samples.

Results

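Type I interferon response genes are the genes that cells switch on when interferon-alpha or interferon-beta binds its receptor. The tissue was thoracic annulus fibrosus, the fibrocartilage ring of the intervertebral disc. A list of 35 such response genes, chosen with earlier results of these data known, was read on 8 Affymetrix arrays. Each was to be read from the probe set that the array annotation gives to that gene alone, and from the one with the highest mean of 8 arrays where there were several. This gave 30 genes of 22180 with such a probe set. Another 4 (Oas1a, Dtx3l, Gbp2 and Ifi27l2a) lie on probe sets shared with a neighbouring gene and are given as values. The annotation gives Ifi44 no probe set, so only its promoter window was read. Of the 30 measured genes, 24 had a mean above the filter level of 6.21 (log2) and were tested. The 6 under it (Isg15, Mx1, Mx2, Bst2, Trim30a and Gbp3) were tested only in a fit with no filter.

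All mice were of the strain given as Black 6. Both genotypes, WT and ENT1-null, were sampled at 2 months and at 6 months of age, with 2 arrays for each combination, and no label names a treatment. ENT1-null mice lack exons 2 to 4 of Slc29a1, the gene of the adenosine carrier ENT1 in the cell membrane. The deletion is not limited to the disc by any label. Each array held a pool of 5 to 6 thoracic annulus tissues, which the labels give as from a mouse. No label says that paired pools are of different mice, so that p-values measure the spread between pools. The values are log2 levels made by RMA. Each difference is log2, ENT1-null minus WT, ± its limma SE, with p-values adjusted (Benjamini-Hochberg) over all genes tested. The deleted gene Slc29a1 was lower on every ENT1-null array, by −1.41 at 2 months and −1.53 at 6 months.

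Interferons bind receptors that activate the kinases JAK1 and TYK2. A complex that includes STAT2 and IRF9 then enters the nucleus and binds the interferon-stimulated response element (ISRE) in the promoters of its targets. The products include sensors of viral RNA and DNA, enzymes that degrade or block viral RNA, the ubiquitin-like modifier ISG15, and the transcription factor IRF7, which raises the output further. The genes are known for being expressed at a basal level in many leukocytes, and they are counted among the genes that respond when a cell's own nucleic acids reach its sensors. In bulk tissue, more cells of a type and more RNA per cell cannot be told apart.

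The promoter sequences are shown because many of these genes carry the ISRE, through which interferon acts on its targets. A list of interferon response genes is not independent of that element, so the shares below only describe the list. RefSeq windows from 250 bases before to 50 after the annotated start (build GRCm38.p6) were found for 25 of the 35 genes, 29 windows in all. The ISRE core was searched on both strands as GAAA, any 2 bases, and GAAA again. It occurred in 14 of the 25 genes (56.0%), against 1079 of 27025 genes (3.99%) in the whole table. The longer form, which is the core followed by CT, occurred in 9 of the 25 (36.0%), against 0.303% of all genes. By window, the core was in 15 of 29 windows and in 3.44% of all 32851. A match is a description of the letters and not a measured binding site.

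The 250 bases before the start of 6 genes follow, 5′ to 3′ on the gene's own strand, with each ISRE core in capitals. Isg15 (chr4:156200819-156201068, minus strand) carries 3 overlapping cores. Rsad2 (chr12:26456453-26456702, minus strand) and Cmpk2 (chr12:26468965-26469214, plus strand) are adjacent genes with the 2 largest differences at 6 months, and Cmpk2 has no core. Oas3 (chr5:120777660-120777909, minus strand) has 1. Ifit1 (chr19:34640639-34640888, plus strand) and Ifit3 (chr19:34583279-34583528, plus strand), of one gene cluster, are shown because their differences had opposite signs.
Isg15: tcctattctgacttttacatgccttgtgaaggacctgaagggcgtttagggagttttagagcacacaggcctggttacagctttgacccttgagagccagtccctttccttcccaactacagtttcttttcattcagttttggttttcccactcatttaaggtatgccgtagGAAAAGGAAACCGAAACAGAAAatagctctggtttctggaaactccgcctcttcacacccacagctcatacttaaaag
Rsad2: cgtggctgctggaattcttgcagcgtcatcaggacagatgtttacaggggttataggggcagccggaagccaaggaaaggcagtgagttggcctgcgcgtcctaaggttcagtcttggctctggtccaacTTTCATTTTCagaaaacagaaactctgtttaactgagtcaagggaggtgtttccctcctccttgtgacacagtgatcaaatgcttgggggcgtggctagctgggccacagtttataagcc
Cmpk2: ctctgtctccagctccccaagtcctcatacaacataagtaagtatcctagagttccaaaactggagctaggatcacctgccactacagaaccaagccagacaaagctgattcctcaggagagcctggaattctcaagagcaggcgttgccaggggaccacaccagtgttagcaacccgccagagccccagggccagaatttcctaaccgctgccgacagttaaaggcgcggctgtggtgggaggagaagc
Oas3: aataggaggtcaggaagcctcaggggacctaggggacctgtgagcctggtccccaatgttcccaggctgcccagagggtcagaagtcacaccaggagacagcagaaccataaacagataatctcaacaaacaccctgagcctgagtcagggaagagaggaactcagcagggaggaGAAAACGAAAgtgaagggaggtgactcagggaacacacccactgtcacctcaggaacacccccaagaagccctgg
Ifit1: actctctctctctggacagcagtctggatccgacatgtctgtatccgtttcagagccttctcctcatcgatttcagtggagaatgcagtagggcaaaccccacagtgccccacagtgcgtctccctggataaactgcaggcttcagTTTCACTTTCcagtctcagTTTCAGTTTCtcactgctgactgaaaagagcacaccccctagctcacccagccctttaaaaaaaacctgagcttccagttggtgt
Ifit3: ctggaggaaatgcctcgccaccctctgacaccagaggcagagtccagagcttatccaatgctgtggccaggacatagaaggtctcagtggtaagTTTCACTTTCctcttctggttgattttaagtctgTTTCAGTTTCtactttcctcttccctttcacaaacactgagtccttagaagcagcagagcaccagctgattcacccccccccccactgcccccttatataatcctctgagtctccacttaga
Counted from the annotated start, the cores of Isg15 begin at −78, −72 and −66, that of Rsad2 at −120 and that of Oas3 at −75. Ifit1 holds cores at −104 and −85, and Ifit3 at −156 and −122. Other windows have a core past the start, as Ifih1 does at 32. The windows with a core are those of Bst2, Ddx58, Gbp2, Gbp3, Ifih1, Ifit1, Ifit3, Ifitm3, Isg15, Oas1a, Oas3, Rsad2, Stat2 and Trim30a. Those without one include Cmpk2, Irf7, Irf9, Herc6, Oasl1 and Oasl2.

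**Figure D1:**
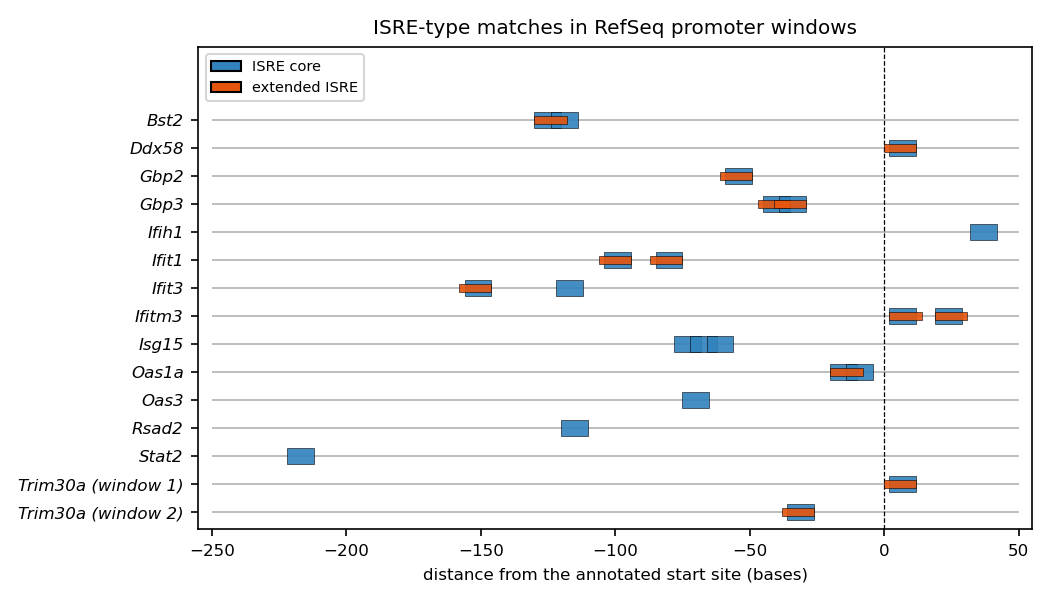
Position of ISRE core matches (blue) and of the longer form (orange) in the RefSeq windows that hold one, as the distance in bases from the annotated start (dashed line). The matches lie between position −222 (Stat2) and 32 (Ifih1).

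In older mice the question was which interferon genes differ when ENT1 is absent, with 2 arrays of each genotype at 6 months. Of the 24 genes tested, 22 rose, 1 fell and 1 did not pass (limma). Among all 15526 genes tested, 21.2% rose and 17.6% fell. The median difference of the 24 was 0.85, against −0.03 over all genes. With no filter, 26 of the 30 measured genes rose and 1 fell, against 14.2% and 12.2% of all genes, and their median was 0.73. Both ENT1-null arrays lay above both WT arrays in 28 of the 30, against 28.1% of all genes, and below both in 1 (Ifit3), against 36.8%. The difference was at least 2-fold in 10 of the 30, against 4.89% of all genes: Cmpk2, Rsad2, Oas3, Oasl2, Usp18, Ifih1, Irf9, Trim30a, Oas2 and Ifitm3. Leaving out replicate 2 of the 6 month WT group gave 14 higher and 1 lower, where the calls among all genes, in both directions, went from 38.8% to 23.6%. Leaving out replicate 2 of the 6 month ENT1-null group gave the same counts of interferon genes, with 30.5% of all genes called.

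Markers of other cells moved in the same arrays. All 12 neutrophil markers and all 12 macrophage and monocyte markers rose at 6 months, against 21.2% of all genes, with medians of 2.56 and 1.53, and their part in the interferon result was not tested. At 2 months none of these 24 markers passed, where 0.296% of all genes rose and 0.386% fell. The marker medians were then 1.5 for neutrophils and 0.88 for macrophages and monocytes. With age in ENT1-null 1 of 12 neutrophil and 7 of 12 macrophage and monocyte markers rose, against 11.9% of all genes.

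At 2 months (2 against 2 arrays) the comparison asks the same of young mice. Of the 24 genes tested, 1 rose (Ifih1) and 23 did not pass (limma), and among all genes tested 0.296% rose and 0.386% fell. With no filter none of the 30 passed, against 0.0496% of all genes higher and 0.0812% lower, and 12 had an unadjusted p below 0.05, as had 3390 of all 22180 genes. In the filtered fit that number was 11 of 24, all higher, and 3008 of all 15526 genes in either direction. The median difference of the 24 was 0.33, against −0.04 over all genes. Both ENT1-null arrays lay above both WT arrays in 22 of the 30, against 17.0% of all genes, and below both in 3 (Ifit3, Mx1 and Mx2), against 31.3%. Leaving out replicate 2 of the 2 month WT group gave 3 rises, with 2.31% of all genes called in either direction. Leaving out any other of these 4 arrays gave none, with at most 0.00644% of all genes called.

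**Figure D2:**
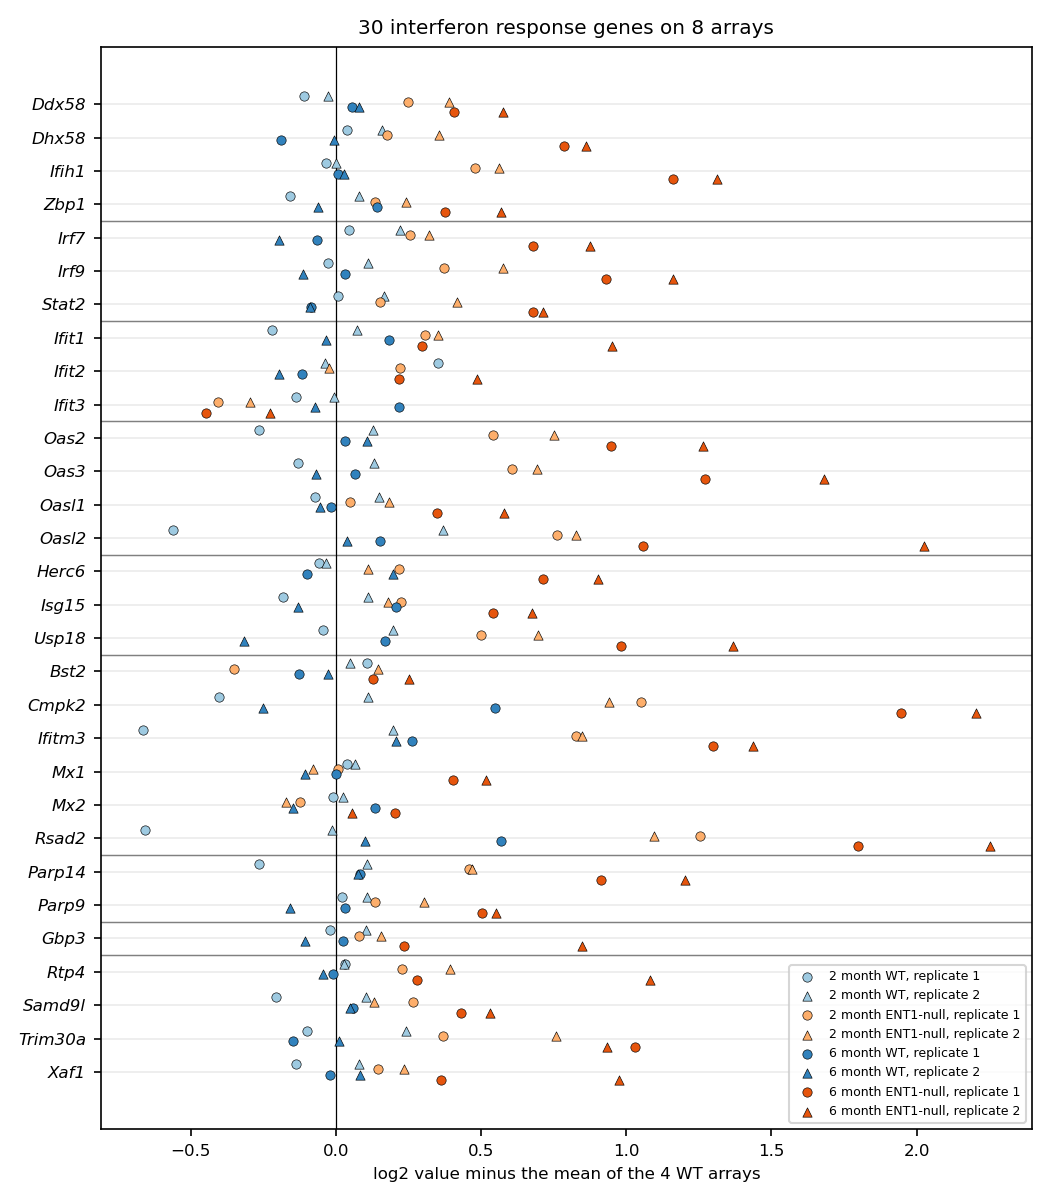
Log2 value of each of the 30 measured genes on each array, minus the mean of its 4 WT arrays (x axis), with genes grouped by role. The 6 month ENT1-null arrays (dark orange) lie above the 6 other arrays in 24 of the 30 genes, and Ifit3 shows both ENT1-null groups below the WT arrays.

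Of the sensors of foreign nucleic acid 4 of 4 rose at 6 months, against 21.2% of all genes, and the calls of 2 of them rested on single arrays. Ifih1 encodes MDA5, which binds long double-stranded RNA. Its log2 level was 7.49 and 7.52 on the 2 month WT arrays, 8.001 and 8.09 on the 2 month ENT1-null arrays, 7.53 and 7.55 on the 6 month WT arrays and 8.68 and 8.84 on the 6 month ENT1-null arrays. The WT arrays were alike at both ages, both 2 month ENT1-null arrays were higher, and both 6 month ENT1-null arrays were higher again. Ifih1 rose by 0.54 ± 0.09 at 2 months (limma adjusted p = 0.0494) and by 1.22 ± 0.09 at 6 months (limma adjusted p = 0.000383), a 2.33-fold difference. The call at 2 months ended without any one of the 4 arrays compared and with no filter, where the adjusted p was 0.0703.

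Dhx58 encodes LGP2, a relative of MDA5 that modulates sensing. It read 6.93 and 7.05 in 2 month WT, 7.06 and 7.24 in 2 month ENT1-null, 6.70 and 6.88 in 6 month WT and 7.67 and 7.75 in 6 month ENT1-null. Its 6 month ENT1-null arrays stood apart from the other 6, and the rise at 6 months was 0.92 ± 0.11 (limma adjusted p = 0.000687). At 2 months it gave 0.17 ± 0.11 (adjusted p = 0.431, limma). Ddx58 encodes RIG-I, the sensor of short RNA with a triphosphate end, and rose by 0.42 ± 0.10 at 6 months (adjusted p = 0.0109, limma) after 0.39 ± 0.10 at 2 months (adjusted p = 0.0903). Zbp1, the Z-form nucleic acid sensor that can trigger necroptosis, rose by 0.43 ± 0.12 at 6 months (adjusted p = 0.0265). The call of Zbp1 ended when replicate 2 of either 6 month group was left out. That of Ddx58 ended likewise, when 6 month WT replicate 1 was left out, and, at 0.27, with quantile normalization applied again.

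The 3 transcription factors all rose at 6 months, against 21.2% of all genes. Irf9, the DNA-binding subunit of the interferon-activated complex, measured 8.23 and 8.37 in 2 month WT, 8.63 and 8.83 in 2 month ENT1-null, 8.29 and 8.14 in 6 month WT and 9.19 and 9.42 in 6 month ENT1-null. Both WT groups were alike, and the ENT1-null arrays were higher at 6 than at 2 months. Its rise at 6 months was 1.09 ± 0.12 (limma adjusted p = 0.000615). Irf7, the factor that amplifies interferon production, was at 7.46 and 7.63 in 2 month WT, 7.67 and 7.74 in 2 month ENT1-null, 7.35 and 7.22 in 6 month WT and 8.09 and 8.29 in 6 month ENT1-null. It rose by 0.91 ± 0.11 at 6 months (adjusted p = 0.000746, limma), and at 2 months gave 0.16 ± 0.11 (adjusted p = 0.465). Stat2, the transactivating subunit, rose by 0.78 ± 0.11 at 6 months (adjusted p = 0.00133), and its 2 month groups overlapped.

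The Ifit genes, which encode RNA-binding proteins with tetratricopeptide repeats, did not move together. On chromosome 19 Ifit2 and Ifit3 are neighbours in RefSeq gene order, and Ifit1 lies in the same cluster. Ifit1 measured 7.08 and 7.38 in 2 month WT, 7.61 and 7.65 in 2 month ENT1-null, 7.49 and 7.27 in 6 month WT and 7.60 and 8.25 in 6 month ENT1-null. One 6 month ENT1-null array lay far above all others while its partner was level with the 2 month ENT1-null arrays, and the difference of 0.55 ± 0.21 did not pass (adjusted p = 0.0699, limma). It was 0.88 and passed without 6 month ENT1-null replicate 1 (adjusted p = 0.00895), and was 0.22 without replicate 2 of that group. Ifit2 stood at 6.71 and 6.32 in 2 month WT, 6.58 and 6.34 in 2 month ENT1-null, 6.25 and 6.16 in 6 month WT and 6.58 and 6.85 in 6 month ENT1-null. It rose by 0.51 ± 0.16 at 6 months (adjusted p = 0.036), though the higher 2 month WT array exceeded the lower 6 month ENT1-null array. This call ended when either 6 month WT array or 6 month ENT1-null replicate 2 was left out.

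Ifit3 was the only one of the 24 that fell. It read 7.85 and 7.99 in 2 month WT, 7.59 and 7.70 in 2 month ENT1-null, 8.21 and 7.92 in 6 month WT and 7.54 and 7.76 in 6 month ENT1-null. Both ENT1-null arrays lay below both WT arrays at each age, by −0.28 ± 0.13 at 2 months (adjusted p = 0.283, limma) and −0.41 ± 0.13 at 6 months (adjusted p = 0.0363). The call at 6 months ended when replicate 1 of the 6 month WT group (−0.27) or of the 6 month ENT1-null group (−0.30) was left out. It also ended with all probe sets, with the replicate block and with only the groups compared. With no filter it was kept (limma adjusted p = 0.0495). A closely related gene, Ifit3b, has its own probe set and is given in the closing section, and which letters the 2 probe sets share was not examined.

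The oligoadenylate synthetases make the messenger that activates RNase L, and the Oasl proteins are relatives of them. The 4 measured members rose at 6 months, against 21.2% of all genes. Oas3 measured 7.06 and 7.32 in 2 month WT, 7.80 and 7.88 in 2 month ENT1-null, 7.26 and 7.12 in 6 month WT and 8.46 and 8.87 in 6 month ENT1-null. The steps from WT to 2 month ENT1-null and on to 6 month ENT1-null were each wider than the gap between paired arrays. It rose by 1.48 ± 0.15 (limma adjusted p = 0.00052), or 2.78-fold, and gave 0.65 ± 0.15 at 2 months (adjusted p = 0.082). Oasl2 was at 6.74 and 7.66 in 2 month WT, 8.06 and 8.12 in 2 month ENT1-null, 7.45 and 7.33 in 6 month WT and 8.35 and 9.32 in 6 month ENT1-null. Its replicates differed by more than those of most members, with one 2 month WT array low and one 6 month ENT1-null array high. The difference at 6 months, 1.45 ± 0.35, passed (adjusted p = 0.0152, limma). It was 0.96 and did not pass without 6 month ENT1-null replicate 2, and leaving out either 6 month WT array also ended the call. Oas2 rose by 1.04 ± 0.16 (adjusted p = 0.00207) and Oasl1 by 0.50 ± 0.12 (adjusted p = 0.0121), whose call ended when replicate 2 of either 6 month group was left out.

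The Isg15 system attaches and removes a ubiquitin-like protein. Usp18 removes ISG15 and also restrains the interferon receptor. Its level was 7.44 and 7.68 in 2 month WT, 7.99 and 8.18 in 2 month ENT1-null, 7.65 and 7.17 in 6 month WT and 8.47 and 8.85 in 6 month ENT1-null. All 4 ENT1-null arrays exceeded all 4 WT arrays, and it rose by 1.25 ± 0.19 at 6 months (limma adjusted p = 0.00206). Herc6, the mouse ISG15 ligase, read 8.42 and 8.44 in 2 month WT, 8.70 and 8.59 in 2 month ENT1-null, 8.38 and 8.67 in 6 month WT and 9.19 and 9.38 in 6 month ENT1-null. The 2 month ENT1-null arrays overlapped the 6 month WT arrays, and the rise at 6 months was 0.76 ± 0.12 (adjusted p = 0.00222, limma). Isg15 itself was under the filter level, at 5.51 and 5.80 in 2 month WT, 5.92 and 5.87 in 2 month ENT1-null, 5.90 and 5.56 in 6 month WT and 6.23 and 6.37 in 6 month ENT1-null. Its difference at 6 months was 0.57 ± 0.14, which passed in the fit with no filter (adjusted p = 0.0214).

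The largest differences were those of a neighbouring pair. Rsad2 (viperin, an enzyme that makes a chain-terminating nucleotide) and Cmpk2 (a nucleotide kinase) are adjacent protein-coding genes on chromosome 12 in RefSeq order. Cmpk2 measured 7.39 and 7.91 in 2 month WT, 8.85 and 8.74 in 2 month ENT1-null, 8.34 and 7.55 in 6 month WT and 9.74 and 10.002 in 6 month ENT1-null. The 2 month ENT1-null arrays were above all 4 WT arrays, although the 6 month WT arrays lay well apart. It rose by 1.93 ± 0.26 at 6 months (limma adjusted p = 0.0013), or 3.81-fold. Rsad2 was at 7.63 and 8.28 in 2 month WT, 9.54 and 9.39 in 2 month ENT1-null, 8.86 and 8.39 in 6 month WT and 10.09 and 10.54 in 6 month ENT1-null. Its genotype groups did not overlap at either age, with differences of 1.51 ± 0.25 at 2 months (adjusted p = 0.0527, limma) and 1.69 ± 0.25 at 6 months (adjusted p = 0.00173). The 2 month difference of Rsad2 passed with a filter at the 50th percentile, with quantile normalization applied again, with arrays centred on their medians, and without 2 month WT replicate 2.

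Ifitm3, a membrane protein that blocks viral fusion, rose by 1.13 ± 0.24 at 6 months (adjusted p = 0.00766, limma). At 2 months it gave 1.07 ± 0.24 (adjusted p = 0.0741), a value that was 0.64 without 2 month WT replicate 1, and 1.5, which passed, without its partner. Those arrays read 9.34 and 10.20. The other 3 of this role were under the filter level. Mx1, a dynamin-like GTPase of which Black 6 mice carry a defective allele, gave −0.09 ± 0.09 at 2 and 0.51 ± 0.09 at 6 months (adjusted p = 0.00498 with no filter). Mx2, its relative, gave 0.14 ± 0.11 at 6 months and Bst2 (tetherin, which holds budding virus at the membrane) 0.27 ± 0.15, neither of which passed with no filter (adjusted p = 0.427 and 0.248). At 2 months Mx1 and Mx2 had both ENT1-null arrays below both WT arrays.

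Parp14 and Parp9 encode ADP-ribosylating enzymes, and Dtx3l a ubiquitin ligase that partners PARP9. The genes lie side by side on chromosome 16. Parp14 measured 7.05 and 7.42 in 2 month WT, 7.77 and 7.78 in 2 month ENT1-null, 7.40 and 7.39 in 6 month WT and 8.23 and 8.52 in 6 month ENT1-null. Every ENT1-null array exceeded every WT array. It rose by 0.98 ± 0.14 at 6 months (adjusted p = 0.00158, limma). Parp9 was at 7.21 and 7.29 in 2 month WT, 7.32 and 7.49 in 2 month ENT1-null, 7.22 and 7.03 in 6 month WT and 7.69 and 7.74 in 6 month ENT1-null, and rose by 0.59 ± 0.10 (adjusted p = 0.00324). The probe set shared by Dtx3l and Parp9 read 7.59 and 7.79 in 2 month WT, 8.04 and 8.02 in 2 month ENT1-null, 7.78 and 7.74 in 6 month WT and 8.50 and 8.55 in 6 month ENT1-null, the same order of group means as Parp14.

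Among the guanylate-binding GTPases, Gbp3 was under the filter level at 5.19 and 5.32 in 2 month WT, 5.30 and 5.37 in 2 month ENT1-null, 5.24 and 5.11 in 6 month WT and 5.45 and 6.06 in 6 month ENT1-null. One 6 month ENT1-null array stood above all others, and the 6 month difference was 0.58 ± 0.18 (adjusted p = 0.0486 with no filter). The probe set shared by Gbp2 and Gbp2b read 8.10 and 7.96 in 6 month WT and 7.98 and 8.05 in 6 month ENT1-null, so the groups overlapped.

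Trim30a, a tripartite motif protein that restrains Toll-like receptor signalling, was also under the filter level, at 5.42 and 5.76 in 2 month WT, 5.88 and 6.28 in 2 month ENT1-null, 5.37 and 5.53 in 6 month WT and 6.55 and 6.45 in 6 month ENT1-null. The 4 ENT1-null arrays exceeded all WT arrays. The difference at 6 months was 1.05 ± 0.16 (adjusted p = 0.00238 with no filter). Rtp4 (a receptor transporter protein) measured 7.18 and 7.18 in 2 month WT, 7.38 and 7.54 in 2 month ENT1-null, 7.14 and 7.11 in 6 month WT and 7.43 and 8.23 in 6 month ENT1-null. One 6 month ENT1-null array stood far above all others. Rtp4 rose by 0.71 ± 0.22 (adjusted p = 0.0392, limma), which was 0.31 and did not pass without 6 month ENT1-null replicate 2. Xaf1, a pro-apoptotic factor, rose by 0.64 ± 0.19 (adjusted p = 0.0298), which was 0.33 and did not pass without that array. Both calls also ended when either 6 month WT array was left out. Samd9l, a growth restraint factor, rose by 0.43 ± 0.12 (adjusted p = 0.023), and its call ended without any one of the 4 arrays compared. The probe set shared by Oas1a and Oas1g read 4.84 and 5.20 in 2 month WT, 4.83 and 5.62 in 2 month ENT1-null, 4.96 and 4.88 in 6 month WT and 5.93 and 5.81 in 6 month ENT1-null. That of Ifi27l2a and Ifi27l2b read 5.66 and 5.86 in 2 month WT, 6.19 and 5.88 in 2 month ENT1-null, 5.98 and 5.98 in 6 month WT and 6.20 and 6.12 in 6 month ENT1-null. Both probe sets read under the filter level on every array.

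**Figure D3:**
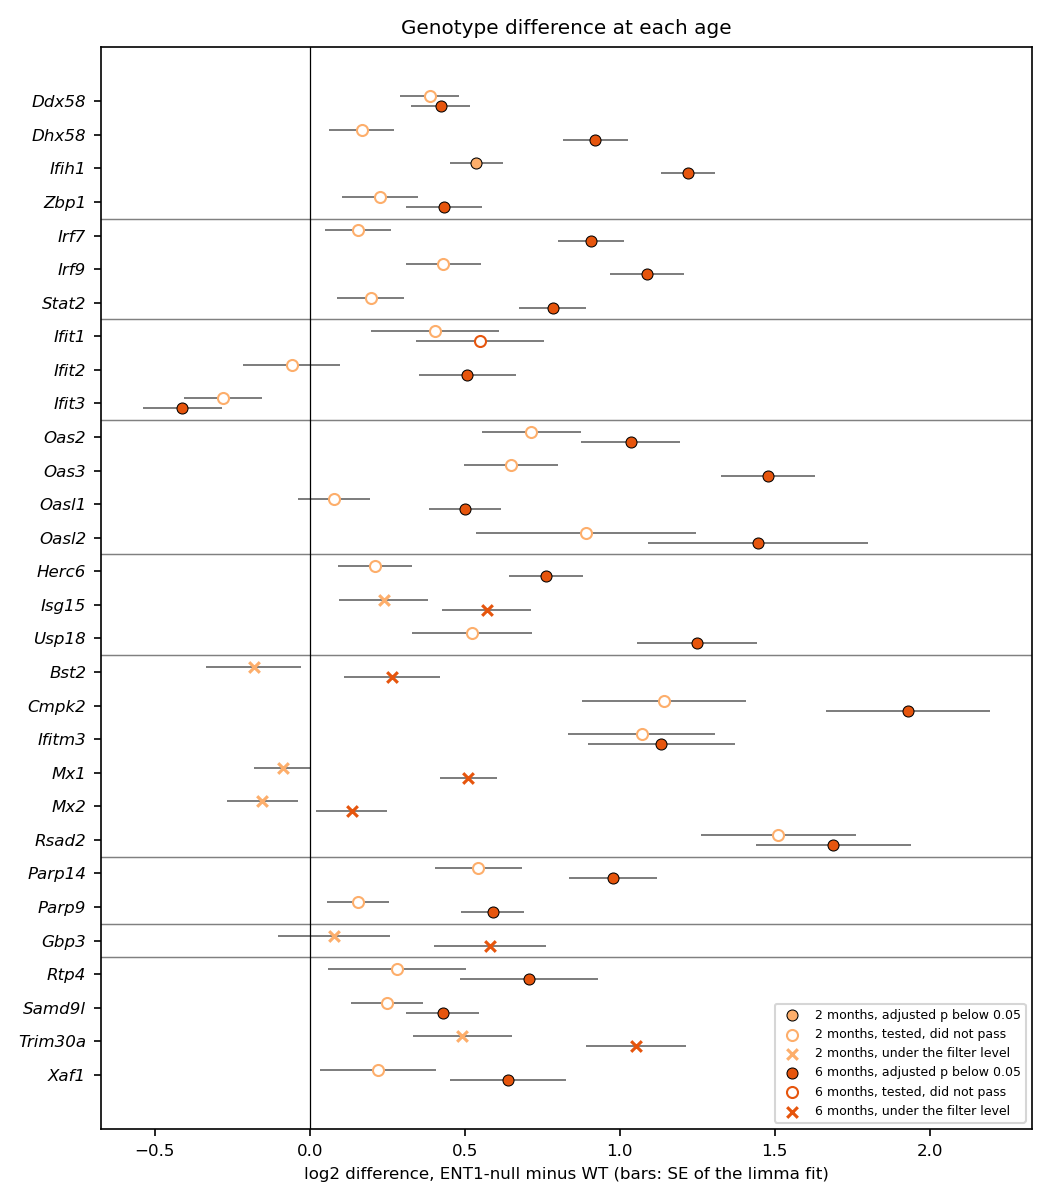
Difference between ENT1-null and WT (log2, x axis) of the 30 measured genes at 2 months (light orange) and 6 months (dark orange), with bars for the SE of the limma fit. Filled points passed, open points were tested and did not pass, and crosses lie under the filter level; 22 genes rose at 6 months and 1, Ifit3, fell.

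The interaction asks whether the difference between the genotypes changed with age. Of 24 genes 3 passed (limma), each higher, against 2.56% of all genes tested higher and 1.89% lower. They were Dhx58 (0.75 ± 0.15, adjusted p = 0.0429), Irf7 (0.75 ± 0.15, adjusted p = 0.0433) and Ifih1 (0.68 ± 0.12, adjusted p = 0.0384). The median over the 24 was 0.43, against 0.05 over all genes. All 3 calls ended when any one of the 8 arrays was left out, as did most calls among all genes tested. With no filter none of the 30 measured genes passed, where 0.0316% of all genes were higher and 0.018% lower. In that fit 13 of the 30 had an unadjusted p below 0.05, as had 4652 of all 22180 genes. Rsad2 gave 0.18 ± 0.35 (adjusted p = 0.797), Ifitm3 0.06 ± 0.33 (adjusted p = 0.931) and Ddx58 0.04 ± 0.13 (adjusted p = 0.899).

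Age was compared within each genotype. Between 2 and 6 months in WT none of the 24 genes passed (limma), as none did of all genes tested (0.0%), and 2 of the 24 had an unadjusted p below 0.05 (2067 of 15526 genes). The median was 0.07. Both 6 month WT arrays lay above both 2 month WT arrays in 4 of 30 genes (17.3% of all genes) and below them in 7 (29.5%). In ENT1-null 10 of the 24 rose with age and none fell, against 11.9% and 10.2% of all genes, with a median of 0.48. Both 6 month arrays lay above both 2 month arrays in 25 of 30 (25.8% of all genes) and below them in none (26.2%). With no filter 10 of the 30 rose, against 7.58% of all genes, and none fell, against 6.15%. The 10 were Cmpk2, Rsad2, Oas3, Ifih1, Herc6, Parp14, Irf9, Dhx58, Irf7 and Stat2. Cmpk2 rose by 1.08 ± 0.26 (adjusted p = 0.0249, limma) and Ifih1 by 0.72 ± 0.09 (adjusted p = 0.00301). This comparison uses the same 6 month ENT1-null arrays as the genotype comparison. Leaving out replicate 1 at 2 months or replicate 2 at 6 months gave 2 rises, with 9.78% and 9.87% of all genes called in either direction, and leaving out replicate 2 at 2 months gave 6, with 15.1%. With all arrays 22.2% were called.

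Across the 8 arrays, 17 of the 30 measured genes were strictly ordered, with both 2 month ENT1-null arrays above all 4 WT arrays and both 6 month ENT1-null arrays above those, against 8.21% of all genes. Among them were Irf7, Irf9, Ifih1, Dhx58, Ddx58, Rsad2, Cmpk2, Usp18, Oas2, Oas3 and Oasl2. By group means 25 genes had this order, against 17.9% of all genes, and the exceptions were Ifit2, Ifit3, Mx1, Mx2 and Bst2. Both 6 month ENT1-null arrays exceeded the 6 other arrays in 24 genes, against 17.9% of all genes.

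The 2 pools of a group also differed in these genes. In 6 month ENT1-null, replicate 2 exceeded replicate 1 in 28 of the 30 genes, against 51.7% of all genes, by a median of 0.21 and at most 0.97 (Oasl2). In 2 month WT, replicate 2 was higher in 27 of 30 (54.7% of all genes), by a median of 0.19. In 2 month ENT1-null it was higher in 22 of 30 (54.6% of all genes), by a median of 0.08. In 6 month WT replicate 2 was higher in only 8 of 30 (50.1% of all genes), with a median gap of −0.09 (replicate 2 minus replicate 1) and the widest in Cmpk2. The genes of the list thus shared their pools, and are not independent replicates.

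The mean of the 30 genes was 7.07 and 7.30 in 2 month WT, 7.50 and 7.58 in 2 month ENT1-null, 7.27 and 7.16 in 6 month WT and 7.88 and 8.15 in 6 month ENT1-null. The 2 month WT array with the lowest mean, replicate 1, also had the lower mean of its group in every marker list but that of T and NK cells. In 6 month ENT1-null, replicate 2 was higher for the 30 genes and for macrophage and monocyte markers, and lower for neutrophil markers. The 12 macrophage and monocyte markers averaged 7.28 and 7.96 in 2 month WT, 8.47 and 8.51 in 2 month ENT1-null, 7.97 and 7.81 in 6 month WT and 9.22 and 9.48 in 6 month ENT1-null. The 12 neutrophil markers averaged 8.85 and 10.11 in 2 month WT, 10.87 and 11.19 in 2 month ENT1-null, 10.24 and 8.68 in 6 month WT and 11.85 and 11.78 in 6 month ENT1-null. Both marker lists were higher in every ENT1-null array than in every WT array, none of their genes lay under the filter level, and their part in the interferon differences was not tested. B cell markers (8 of 9 measured, Vpreb1 under the filter level) averaged from 6.86 to 7.35 in 2 month WT, 7.46 to 7.51 in 2 month ENT1-null, 7.18 to 7.39 in 6 month WT and 8.19 to 8.21 in 6 month ENT1-null. T and NK cell markers (8 of 9 measured, with Cd3g, Klrb1c, Gzma and Ncr1 under the filter level) averaged from 6.14 to 6.15, 6.21 to 6.30, 5.83 to 6.17 and 6.70 to 6.81 in the same order. At 6 months 6 of 7 tested B cell markers and 2 of 4 tested T and NK cell markers rose, against 21.2% of all genes. Of 9 erythroid markers only Klf1, Epb42 and Slc4a1 were measured. All 3 rose at 6 months, against 21.2% of all genes, and 1 (Klf1) rose at 2 months, against 0.296%.

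Plasmacytoid dendritic cells are known as the main producers of interferon-alpha. Of their 10 markers, 8 were tested at 6 months, and Ccr9 and Klk1 lay under the filter level. Of the 8, 3 rose (Ly6d, Spib and Tlr9), against 21.2% of all genes. Another 2 fell (Tcf4 and Cox6a2), against 17.6% of all genes, and 3 did not pass. The 10 markers averaged 7.03 and 7.31 in 2 month WT, 7.40 and 7.46 in 2 month ENT1-null, 7.33 and 7.32 in 6 month WT and 7.68 and 7.55 in 6 month ENT1-null. Markers of the annulus itself were present: the 12 annulus and chondrocyte genes, among them Acan, Col2a1, Sox9, Col1a1 and Fmod, averaged 10.79 and 11.02 in 2 month WT, 10.72 and 10.93 in 2 month ENT1-null, 10.55 and 10.59 in 6 month WT and 10.20 and 10.01 in 6 month ENT1-null, and at 6 months 8 fell and 2 rose (Col1a1 and Col1a2), against 17.6% and 21.2% of all genes. Skeletal muscle markers (9 genes) averaged 7.80 and 9.07 in 2 month WT, 8.68 and 10.31 in 2 month ENT1-null, 10.29 and 10.18 in 6 month WT and 7.21 and 8.34 in 6 month ENT1-null, and at 6 months 8 of them fell, against 17.6% of all genes. Endothelial markers (7 genes) ranged from 7.91 to 8.39 in 2 month WT, 8.49 to 8.83 in 2 month ENT1-null, 8.32 to 8.40 in 6 month WT and 8.82 to 8.83 in 6 month ENT1-null, and 2 of them rose at 6 months, against 21.2% of all genes.

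**Figure D4:**
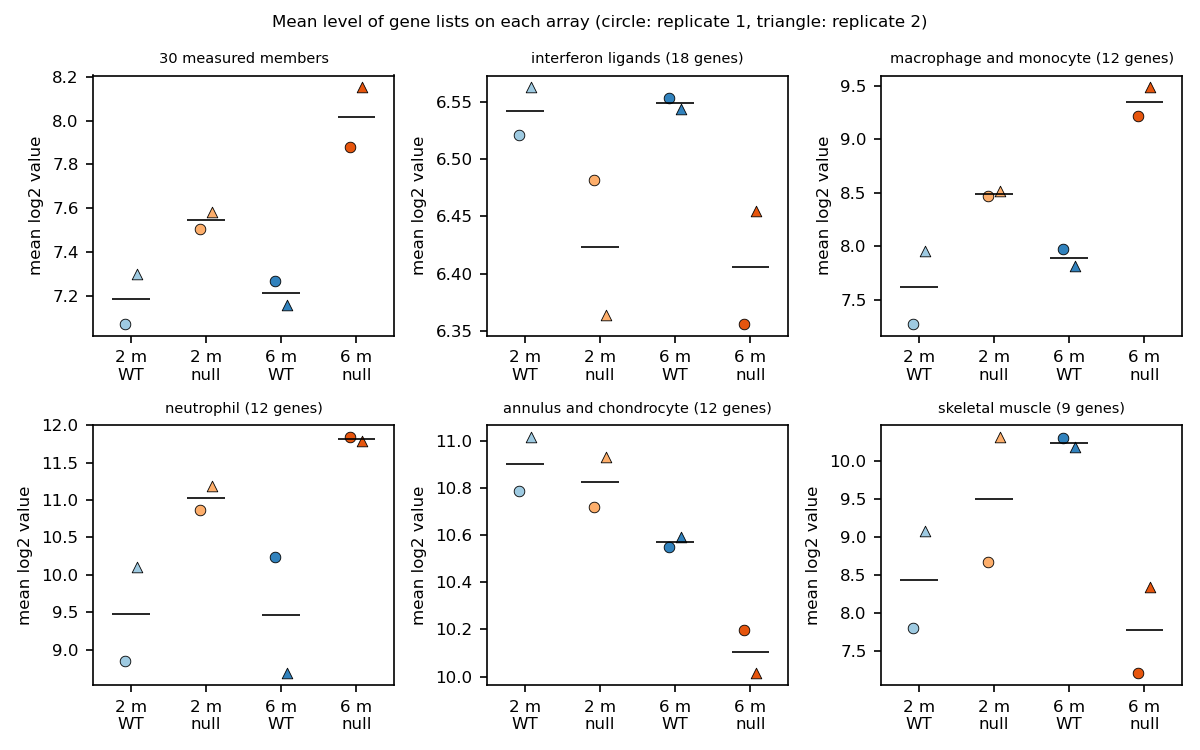
Mean log2 value of the 30 measured interferon response genes and of 5 other gene lists on each array (circles for replicate 1, triangles for replicate 2, lines for the group mean). Axes differ between panels and do not start at 0. The interferon genes and the macrophage and neutrophil markers are higher on all 4 ENT1-null arrays, while the interferon ligands span from 6.36 to 6.56.

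The other genes of the pathway were read from lists of its steps. The ligands come first. Of 19 interferon genes listed, 18 were measured and 10 were tested. At 6 months none rose and 2 fell (limma), against 21.2% and 17.6% of all genes. At 2 months none passed, where 0.296% of all genes rose and 0.386% fell. The 18 ligand genes averaged 6.52 and 6.56 in 2 month WT, 6.48 and 6.36 in 2 month ENT1-null, 6.55 and 6.54 in 6 month WT and 6.36 and 6.45 in 6 month ENT1-null. Ifnb1, Ifng, Ifnk and 5 others lay under the filter level. Ifna14 fell by 0.50 ± 0.11 at 6 months (adjusted p = 0.00817) and Gm13271, matched to the listed gene Ifnz, by 0.44 ± 0.10 (adjusted p = 0.00932). Ifna12 gave −0.45 ± 0.15 (adjusted p = 0.0505). The interferon-alpha genes are near copies of one another, so which copy a probe set reads is uncertain.

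Receptors and their kinases were measured in 9 of 10 cases. Of these, 8 rose at 6 months, against 21.2% of all genes, and 1 did not pass, with a median of 0.60. Ifngr1, of the interferon-gamma receptor, rose by 0.79 ± 0.09 (adjusted p = 0.000713, limma). Ifnlr1 and Il10rb, the chains of the interferon-lambda receptor, rose by 1.01 ± 0.12 (adjusted p = 0.000806) and 0.99 ± 0.14 (adjusted p = 0.00135). Of the 14 upstream sensors and adaptors tested, 11 rose, against 21.2% of all genes, and 2 did not pass, with a median of 0.78. Another 1 fell (Tlr3, the endosomal sensor of double-stranded RNA), against 17.6% of all genes. The kinase Ikbke rose by 1.05 ± 0.11 (adjusted p = 0.000507), the RNA receptor Tlr8 by 1.70 ± 0.21 (adjusted p = 0.000883) and the adaptor Myd88 by 0.95 ± 0.12 (adjusted p = 0.00109). At 2 months none of the genes in either list passed, where 0.296% of all genes rose and 0.386% fell.

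Negative regulators and nucleases, which limit signalling or remove stray nucleic acid, had 9 tested genes. Of these, 5 rose at 6 months, against 21.2% of all genes, and 4 did not pass. Rnaseh2b, a subunit of the enzyme that removes RNA from DNA, rose by 1.22 ± 0.11 (adjusted p = 0.000427, limma). Samhd1, which hydrolyses deoxynucleotides, rose by 1.29 ± 0.14 (adjusted p = 0.000583), and Ptpn6, the phosphatase SHP-1 of blood cells, by 1.89 ± 0.26 (adjusted p = 0.00122). Genes of MHC class I presentation were tested in 11 cases, and 9 rose, against 21.2% of all genes, and 2 did not pass, with a median of 0.60. Among them H2-K1 rose by 1.28 ± 0.20 (adjusted p = 0.00228), the peptide transporter Tap1 by 1.02 ± 0.16 (adjusted p = 0.00213) and the proteasome activator Psme1 by 0.60 ± 0.08 (adjusted p = 0.00122).

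Of 11 tested genes that lean to interferon-gamma, 8 rose and 3 did not pass at 6 months, with a median of 0.68. The MHC class II genes H2-Ab1 (1.82 ± 0.23), H2-Eb1 (1.64 ± 0.21) and H2-Aa (1.83 ± 0.31) led this list, with adjusted p between 0.00102 and 0.00325 (limma). These genes are also markers of antigen-presenting cells. Of 33 further interferon-induced genes tested, 22 rose and 11 did not pass, with a median of 0.52. Uba7, the enzyme that activates ISG15, rose by 2.18 ± 0.23 (adjusted p = 0.000566), Sp100 by 1.85 ± 0.20 (adjusted p = 0.000561) and Pml by 1.34 ± 0.11 (adjusted p = 0.000383), of which the last 2 encode proteins of nuclear bodies. Counts in each of these lists are to be read against the 21.2% of all genes that rose at 6 months.

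The promoter windows were set beside the differences at 6 months. The 12 measured genes with an ISRE core had a median of 0.68, from −0.41 (Ifit3) to 1.69 (Rsad2). The 9 measured genes whose window lacks one had a median of 0.76, from 0.43 (Samd9l) to 1.93 (Cmpk2). The ranges overlapped over most of their length, and no test was made.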

How the data were processed

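Expression was measured on 8 Affymetrix arrays of mouse thoracic annulus fibrosus, 2 in each of 4 groups. Per the labels' protocols, 200 ng of total RNA was labelled as biotin cRNA for each array. Per the submitters' processing notes the authors used RMA, and the deposited values are log2 levels, 1 per probe set. RMA corrects background, makes the arrays' distributions alike and sums probes, so that a shift of all genes in one direction would not be visible. RMA version and array build: not given in the sources used here. Array medians ran from 6.77 to 6.82, and the number of arrays limits the precision.

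Probe sets were named by the platform annotation: of 41345, 23521 had 1 gene symbol, 1814 several and 16010 none. Genes with a mean under the 30th percentile (6.21) were left out, and 15526 were tested. limma 3.58.1 in R 4.3.3 was fitted with 4 group means (4 residual degrees of freedom), with eBayes, Benjamini-Hochberg adjustment over all genes tested, and a threshold of 0.05. The fit was tested on simulated data. Alternatives were other filters, normalization, probe set rules, a replicate block, eBayes options, the groups compared alone, leaving out each array, and a threshold of 0.1. The genes named were every member, and the 3 with the largest moderated statistic in each pathway list. The members and lists were chosen with earlier results of these data known, among them a shorter interferon list that overlaps this one. Replicate numbers were not taken as pairs. Sequences are RefSeq's.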

Additional observations from a re-analysis of the deposited data

Results flagged for a closer look

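By the interaction test of limma, the difference between ENT1-null and WT was larger at 6 than at 2 months for 3 of 24 interferon response genes. Among all genes tested 2.56% were higher in this test. The change in the difference was 0.75 ± 0.15 for Dhx58 (adjusted p = 0.0429), 0.75 ± 0.15 for Irf7 (adjusted p = 0.0433) and 0.68 ± 0.12 for Ifih1 (adjusted p = 0.0384). In each gene both 6 month ENT1-null arrays lay above the 6 other arrays, as in 17.9% of all genes. From 2 to 6 months in WT, Irf7 gave −0.26 ± 0.11, Dhx58 −0.19 ± 0.11 and Ifih1 0.03 ± 0.09, none of which passed. All 3 calls ended when any one array was left out, as did most calls among all genes tested. In those fits Dhx58 ranged from 0.66 to 0.85, Irf7 from 0.65 to 0.85 and Ifih1 from 0.60 to 0.76. With groups of 2 arrays, single arrays could not be examined as outliers.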

How the results depend on the processing

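At 6 months 14 of the 23 calls were kept under every alternative tried, and 9 were not: Ddx58, Ifit2, Ifit3, Oasl1, Oasl2, Rtp4, Samd9l, Xaf1 and Zbp1. The count was 15 to 22 when 1 array was left out (lowest when replicate 2 of either 6 month group was left out) and 20 to 24 otherwise, or 27 of 30 with no filter. At 2 months the 1 call became 0 with no filter, with all probe sets, with the replicate block and with only the groups compared, 2 with the filter at the 50th percentile, with quantile normalization applied again and with arrays centred on medians, 7 at adjusted p below 0.1, and 0 to 3 without single arrays. Among all genes 1.04% to 1.13% were called in the 2 month fits with 2 calls. At adjusted p below 0.1 the share was 5.3% at 2 months and 48.0% at 6 months. With all probe sets 15.2% of all features were called at 6 months. In the interaction 3 calls became 0 with no filter (0.0496% of all genes called) or all probe sets (0.0%). At adjusted p below 0.1 there were 7 (15.3%), against 3 in the main fit. These 3 also ended without any one array, as did most interaction calls among all genes tested. Age in ENT1-null gave 10 calls (22.2% of all genes called) and 5 with all probe sets (5.44%). It gave fewer than 10 without some single arrays. Age in WT gave 0 throughout. Without 6 month ENT1-null replicate 2, the age difference in ENT1-null turned to −0.032 for Ifit1 and −0.029 for Rtp4, from 0.29 and 0.37, and their highest values with 1 array left out were 0.62 and 0.77. All probe sets and no filter leave more features to adjust over, and fewer arrays leave fewer degrees of freedom. Why calls changed was not tested for any setting.

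Same-numbered arrays shared only a number: their deviations from group means correlated from −0.40 to 0.41 over the 6 pairs of groups. With the replicate block the counts were 22 at 6 months (36.7% of all genes called) and 0 at 2 months (0.00644%). They were 2 in the interaction (2.27%) and 10 by age in ENT1-null (20.5%), and Ifit3 no longer passed. Fits with 1 array in a group assume that it varies like the others. RMA gives no background call, so low probe sets such as Isg15, Mx1, Mx2, Bst2, Gbp3 and Trim30a may be near background, and their differences may be understated.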

Other observations

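Relatives of the listed genes have probe sets of their own. They were picked with their values known, so that their adjusted p-values support nothing. Ifit3b, a close relative of Ifit3, read 4.12 and 4.44 in 2 month WT, 4.37 and 4.11 in 2 month ENT1-null, 4.48 and 4.70 in 6 month WT and 4.74 and 4.14 in 6 month ENT1-null, and its difference at 6 months was −0.15 ± 0.21 (limma adjusted p = 0.636 with no filter). Ifit1bl2 gave 0.53 ± 0.17 at 6 months (adjusted p = 0.0399). Ifit1bl1 gave 0.55 ± 0.09 at 2 months and −0.05 ± 0.09 at 6 months (adjusted p = 0.0628 and 0.738 with no filter).

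Of the other families, Oas1b gave 1.25 ± 0.17 at 6 months (adjusted p = 0.00112, limma) and Gbp7 1.16 ± 0.20 (adjusted p = 0.00354). Ifitm6 gave 3.33 ± 0.62 (adjusted p = 0.00457) and Ifitm1 0.51 ± 0.10 (adjusted p = 0.00535), while Ifitm2 gave 0.05 ± 0.15 (adjusted p = 0.832 with no filter). Ifi44l, the relative of Ifi44, gave −0.01 ± 0.09 (adjusted p = 0.967 with no filter).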
